A study of Mus musculus with 8 samples.

Results

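Thyroid hormone handling and response genes were examined in mouse liver as a list of 8 named genes, chosen by symbol: the deiodinase gene Dio1, the transporter gene Slc16a10, the binding protein genes Ttr and Crym, the hormone-responsive gene Thrsp with the ubiquitin ligase gene Hectd3, and the coregulator genes Ncoa1 and Ncor1. Of these, 7 had an array row that names that symbol alone, out of 22180 genes measured in this way, each through 1 feature of the array. Ncor1 was not analysed here.

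The IL1B group consisted of 4 male wild-type mice given recombinant mouse interleukin 1 beta, a pro-inflammatory cytokine, as 1 intraperitoneal dose of 0.5 µg per mouse, and the PBS group of 4 male wild-type mice given the vehicle. The series description has them bought at 7 weeks of age, whereas the study's methods give a wider range of ages for its wild-type mice. All were acclimated for 2 weeks and had their livers taken after 3 h. The strain is labelled C57BL/6 x CBA in the IL1B mice and C57BL/6J in the PBS mice, whereas the series description names C57BL/6J for all 8, and the effects of treatment and of the labelled strain cannot be told apart here. Total liver RNA of each mouse was hybridized to 1 Affymetrix MoGene 2.0 ST array, and the values are log2 intensities after robust multi-array averaging (RMA), which run up to a ceiling of 19.93. A value was taken as background when it did not exceed the array's highest probe set without a genomic target, which lay between 6.65 and 7.08. The whole liver holds several cell types, and fewer cells of a type and less RNA per cell cannot be told apart in these values.

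Thyroid hormone leaves its gland mainly as the prohormone T4, travels in plasma on transthyretin, thyroxine-binding globulin and albumin, and enters hepatocytes through membrane transporters. Inside the cell, deiodinases, which are selenium-containing enzymes, remove iodine: type 1 deiodinase can form the active hormone T3 and also clears inactive iodothyronines, while sulphation and glucuronidation mark the hormone for disposal. T3 binds nuclear receptors that sit on DNA with RXR partners, where a corepressor complex built around NCOR and HDAC3 is exchanged for coactivators. Lipogenic genes such as Thrsp and Me1 are classical T3-responsive genes of rodent liver, and Dio1 is one as well.

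At 3 h, Thrsp and Slc16a10 were higher in IL1B livers, Hectd3 was lower, and Dio1 did not pass the test. Thrsp, which encodes the lipogenic regulator Spot 14, was 5.47-fold higher (95% confidence interval 2.64 to 11.3), Slc16a10 was 2.16-fold higher (1.52 to 3.07), and Hectd3 was 1.88-fold lower (1.43 to 2.48). A gene was called when its limma p-value, after Benjamini-Hochberg adjustment across the 22180 genes, was 0.05 or less. By this rule 2 of the 7 measured genes were called higher and 1 lower, against 12.5% of all genes called in either direction (7.19% higher and 5.32% lower). Among the genes above background on every array the called share was 24.2%. IL1B and PBS values stood clear of each other in 4 of the 7 (2 above and 2 below), against 19.0% of all genes, and at the study's cutoff of 0.15 the same 4 were called, against 23.6%. Both of these shares include 12160 genes at or below background on every array, whereas the 4 genes were above background on every array. With 7 genes these counts describe the list and were not tested against the background.

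**Figure D1:**
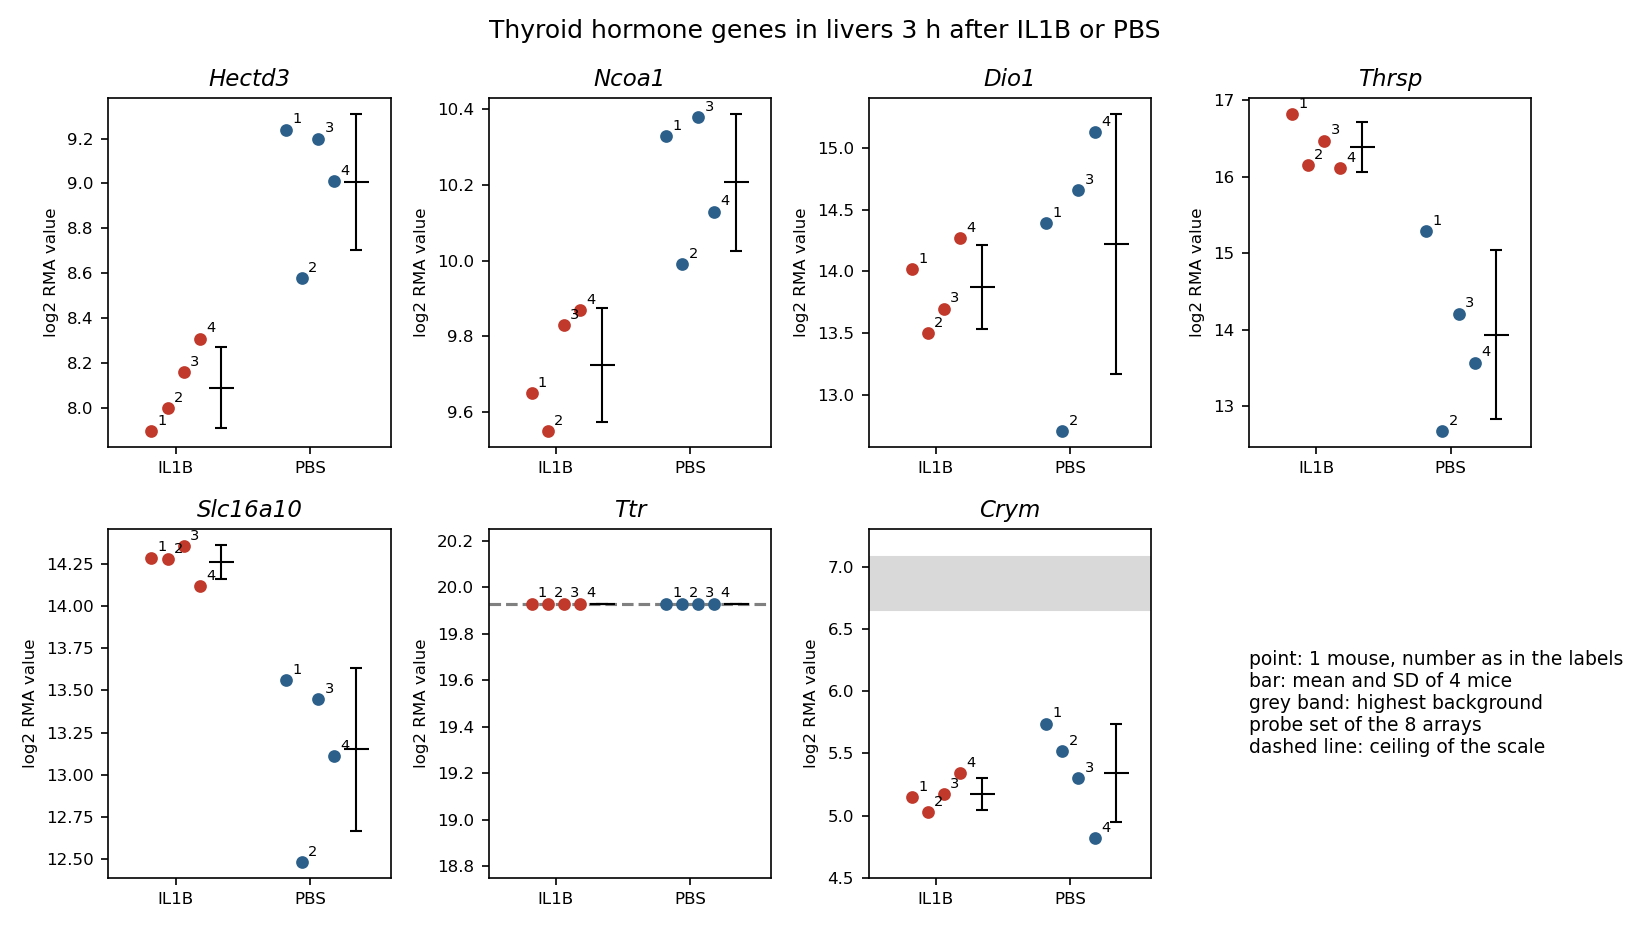
Log2 RMA value of the 7 measured genes in each mouse, IL1B left and PBS right in each panel, with the mean and SD of 4 mice as a bar, the background band in grey and the ceiling as a dashed line. Thrsp and Slc16a10 lay higher in all 4 IL1B mice than in any PBS mouse, Hectd3 and Ncoa1 lay lower, Dio1 overlapped, Ttr sat at 19.93 throughout and Crym did not leave the background.

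For the genes whose levels carry the result, the stretch around the transcription start is shown, so that called genes can be set beside Dio1 at the level of sequence. The windows hold 250 bases before and 50 bases after the start as annotated by RefSeq on GRCm38.p6, which matched 6 of the 8 genes. Thrsp lies at chr7:97417501-97417800 on the minus strand, Slc16a10 at chr10:40142205-40142504 on the minus strand, Hectd3 at chr4:116995084-116995383 on the plus strand and Dio1 at chr4:107307119-107307418 on the minus strand. Capitals mark the CCAAT box, read as CCAAT or, on the other strand, ATTGG.
Thrsp: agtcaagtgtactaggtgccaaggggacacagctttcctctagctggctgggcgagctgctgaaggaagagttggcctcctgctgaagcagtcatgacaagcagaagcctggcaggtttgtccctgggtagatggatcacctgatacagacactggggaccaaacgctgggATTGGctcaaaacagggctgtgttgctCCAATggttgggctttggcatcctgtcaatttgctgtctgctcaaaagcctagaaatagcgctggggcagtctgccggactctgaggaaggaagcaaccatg
Slc16a10: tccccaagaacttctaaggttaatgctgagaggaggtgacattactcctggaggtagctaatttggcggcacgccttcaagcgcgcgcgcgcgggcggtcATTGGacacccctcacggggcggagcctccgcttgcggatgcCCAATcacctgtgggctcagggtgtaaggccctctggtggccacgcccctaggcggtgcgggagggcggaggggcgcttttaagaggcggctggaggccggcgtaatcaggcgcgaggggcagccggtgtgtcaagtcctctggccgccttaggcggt
Hectd3: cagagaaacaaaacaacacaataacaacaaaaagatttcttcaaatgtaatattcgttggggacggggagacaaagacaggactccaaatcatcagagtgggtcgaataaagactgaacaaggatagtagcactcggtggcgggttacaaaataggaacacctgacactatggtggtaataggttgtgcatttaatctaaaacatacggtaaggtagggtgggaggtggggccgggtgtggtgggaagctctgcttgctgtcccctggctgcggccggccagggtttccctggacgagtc
Dio1: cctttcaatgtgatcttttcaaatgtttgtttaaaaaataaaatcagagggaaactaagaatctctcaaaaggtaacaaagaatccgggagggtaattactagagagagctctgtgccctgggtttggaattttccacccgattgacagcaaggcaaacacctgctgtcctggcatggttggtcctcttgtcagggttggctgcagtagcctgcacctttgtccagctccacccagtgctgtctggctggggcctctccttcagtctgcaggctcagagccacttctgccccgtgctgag

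The receptor half-site, spelt AGGTCA or TGACCT on the opposite strand, was in none of these 4 windows and in 16.3% of 32851 RefSeq windows of the same length. The direct repeat of AGGTCA with a spacer of any 4 bases, searched on both strands and overlapping the half-site by definition, was likewise in none of the 4, and in 0.0152% of all windows. The CCAAT box, a search added after the windows had been looked at, occurred 2 times in Thrsp, at -79 and -52, and 2 times in Slc16a10, at -150 and -108, where -1 is the base just before the start. It was absent from the Hectd3 and Dio1 windows and present in 37.4% of all windows. A pattern for the site of the transcription factor NF-kB was searched as well. It was in none of the 4 windows and in 8.46% of all windows. GC content was 54.3% in Thrsp, 65.3% in Slc16a10, 48.7% in Hectd3 and 49.7% in Dio1. These matches describe letters in a short window.

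Dio1, which encodes the hepatic type 1 deiodinase, measured 14.02, 13.50, 13.70 and 14.27 in IL1B mice 1 to 4, against 14.39, 12.71, 14.66 and 15.13 in PBS mice 1 to 4. The IL1B mice lay close together and inside the PBS range, which was set by a low value in PBS 2 and a high value in PBS 4. The means were 13.87 ± 0.34 in IL1B and 14.23 ± 1.05 in PBS (SD, n = 4 each), a log2 fold change of -0.35 ± 0.45 (SE; limma adjusted p = 0.675, two-sided exact permutation p = 0.571). Its 95% confidence interval, from -1.37 to 0.67, spans a level 2.58-fold lower to one 1.59-fold higher, and changes within that range could not be resolved with 4 mice per group. A single mouse moved the estimate. Without PBS 2 the log2 fold change of Dio1 was -0.86 ± 0.24 (limma adjusted p = 0.058), and without PBS 4 it was -0.05 (limma adjusted p = 0.964).

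The other 2 deiodinase genes were not measurable. Dio2, whose enzyme activates T4 in tissues such as brown fat, and Dio3, whose enzyme inactivates T4 and T3, stayed at background on all 8 arrays. Deiodinases carry selenocysteine, and of 6 measured genes for selenocysteine synthesis and insertion and for the selenium carrier of plasma, none was called higher, 1 was called lower and 5 were not called. Their median log2 fold change was -0.46, beside -0.06 over all genes. Selenop, the gene of that carrier, was not called and read 15.51 on all arrays except IL1B 1 (15.47) and PBS 4 (15.75). Whether the array could resolve a change in Selenop was not tested. The called gene was Pstk, which encodes the kinase that phosphorylates the tRNA-bound serine precursor of selenocysteine. It read 7.06, 7.56, 7.45 and 7.47 in IL1B livers, against 8.06, 8.81, 8.67 and 8.54 in PBS livers. The groups stood apart, and Pstk fell by 1.14 on the log2 scale (SE 0.19, limma adjusted p = 0.00485), with the call kept in all 8 fits that left out 1 array.

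Slc16a10 encodes the aromatic amino acid and thyroid hormone transporter MCT10. It measured 14.29, 14.28, 14.36 and 14.12 in IL1B livers, against 13.56, 12.48, 13.45 and 13.11 in PBS livers. All 4 IL1B mice lay above all 4 PBS mice, with a gap of 0.56 between the nearest values. The means were 14.26 ± 0.10 in IL1B and 13.15 ± 0.49 in PBS (SD, n = 4 each), and the log2 fold change was 1.11 ± 0.23 (SE; limma adjusted p = 0.0123). The two-sided exact permutation p was 0.0286, the smallest that 70 assignments of 4 and 4 mice allow. Left-out arrays moved the log2 fold change of Slc16a10 between 0.89, without PBS 2, and 1.25, and the call was kept in each of these 8 fits.

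Of 10 measured transporters of thyroid hormone or its conjugates, 2 were called higher, 1 was called lower and 7 were not called, with a median log2 fold change of -0.26. Beside Slc16a10, the higher gene was Slc3a2, which encodes the heavy chain that brings LAT-type amino acid transporters to the membrane. Slc3a2 had 12.45, 12.18, 11.75 and 11.73 in IL1B livers and 11.27, 10.94, 11.66 and 11.10 in PBS livers. The lowest IL1B value exceeded the highest PBS value only narrowly, and the log2 fold change of 0.79 ± 0.22 (limma adjusted p = 0.0425) lost its call without IL1B 1 (0.65), IL1B 2 (0.74), PBS 1 (0.80), PBS 2 (0.69) or PBS 4 (0.74) and after quantile normalization (0.66). The lower gene was Slc10a1, which encodes the bile acid transporter NTCP, a carrier of sulphated iodothyronines as well. Its values were 17.76, 17.97, 18.44 and 18.11 in IL1B livers and 18.80, 18.56, 18.71 and 18.60 in PBS livers, a log2 fold change of -0.60 ± 0.16 (limma adjusted p = 0.0424). That call held in only 1 of the 8 fits with an array left out, the one without IL1B 3, with log2 fold changes from -0.72 to -0.49, and it was lost after median centring (-0.56).

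Transthyretin, the product of Ttr, is made by hepatocytes and carries T4 and retinol-binding protein in plasma. Ttr read 19.93 on all 8 arrays, the ceiling of the scale, so a change in either direction is not measured here. Albumin, encoded by Alb, was also at the ceiling in both groups. Crym encodes mu-crystallin, a cytosolic T3-binding protein. The Crym values were 5.15, 5.03, 5.17 and 5.34 in IL1B livers and 5.74, 5.52, 5.30 and 4.82 in PBS livers, at background on all 8 arrays, and no fold change is given.

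The remaining binding protein gene, Serpina7, encodes thyroxine-binding globulin and had the highest log2 fold change among the pathway genes named here. Serpina7 measured 16.44, 16.60, 16.31 and 16.37 in IL1B livers, against 13.66, 14.80, 13.66 and 11.18 in PBS livers. The IL1B mice were nearly equal, while the PBS mice spread widely below them with PBS 4 lowest. Serpina7 rose by 3.11 ± 0.62 on the log2 scale (SE; limma adjusted p = 0.0114), 8.62-fold with an interval from 3.29 to 22.6. With 1 array left out its log2 fold change ran from 2.39 to 3.60, and the call was kept in all 8 fits. Of the 4 binding protein genes 1 was thus called higher and 3 were not called.

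Among 5 measured genes of hormone conjugation, sulphotransferases and the enzymes that make their sulphate donor, 1 was called lower, 4 were not called, and the median log2 fold change was -0.34. Sult1c2, a cytosolic sulphotransferase gene, had 5.72, 6.31, 6.72 and 6.36 in IL1B livers and 7.87, 8.05, 7.74 and 7.52 in PBS livers. Only 1 of the 4 IL1B values, that of IL1B 3, was above background, so the size of the fitted log2 fold change of -1.52 ± 0.21 (limma adjusted p = 0.0021) rests on values the array did not resolve.

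Thrsp had the largest change of the 7 genes. It measured 16.82, 16.15, 16.47 and 16.11 in IL1B livers, against 15.29, 12.68, 14.21 and 13.57 in PBS livers. The groups were separated by 0.82 between IL1B 4, the lowest IL1B mouse, and PBS 1, the highest PBS mouse. Means were 16.39 ± 0.33 in IL1B and 13.94 ± 1.10 in PBS (SD, n = 4 each). Thrsp rose by 2.45 ± 0.47 on the log2 scale (SE; limma adjusted p = 0.00931, two-sided exact permutation p = 0.0286) and ranked 159 of 22180 genes from the highest log2 fold change down. Without PBS 2, the mouse with the lowest Thrsp value, the log2 fold change was 2.03, and without PBS 1 it was 2.90. The call was kept in all 8 such fits.

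Hectd3 encodes a HECT-type E3 ubiquitin ligase. It measured 7.90, 8.0, 8.16 and 8.31 in IL1B livers, against 9.24, 8.58, 9.20 and 9.01 in PBS livers. Every IL1B value lay under every PBS value, with a gap of 0.27 that PBS 2 set. The means of 8.09 ± 0.18 in IL1B and 9.01 ± 0.30 in PBS (SD, n = 4 each) rest on values that were all above background. Hectd3 fell by 0.91 on the log2 scale (SE 0.18, limma adjusted p = 0.00985, two-sided exact permutation p = 0.0286). Leaving out 1 array gave Hectd3 log2 fold changes from -1.06 to -0.84, each called. Dio1 and Hectd3, both on chromosome 4, thus differed in whether their groups overlapped, although no test set the 2 genes against each other.

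The wider list of genes described as induced by T3 in rodent liver, which was set to hold Dio1, Hectd3 and Thrsp as well, did not move in a single direction. Of 14 measured genes 2 were called higher, Thrsp and Klf9, 2 were called lower, Hectd3 and Hr, and 10 were not called, with a median log2 fold change of -0.40. Klf9 encodes a Kruppel-like transcription factor. It had 14.54, 14.34, 14.82 and 14.56 in IL1B livers, against 13.72, 13.38, 13.55 and 14.00 in PBS livers, and rose by 0.91 ± 0.17 on the log2 scale (SE; limma adjusted p = 0.00846). The groups did not overlap, and the call was kept in all 8 fits with an array left out. Hr, a corepressor gene, was called lower at background in both groups, and its call was lost in each of those fits. Further examples, chosen after their values were seen, are Me1, which encodes the lipogenic malic enzyme, at -0.12 (limma adjusted p = 0.887), and G6pc, which encodes the last enzyme of glucose release, at -1.51 ± 0.47 (limma adjusted p = 0.0686) with groups that did not overlap.

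**Figure D2:**
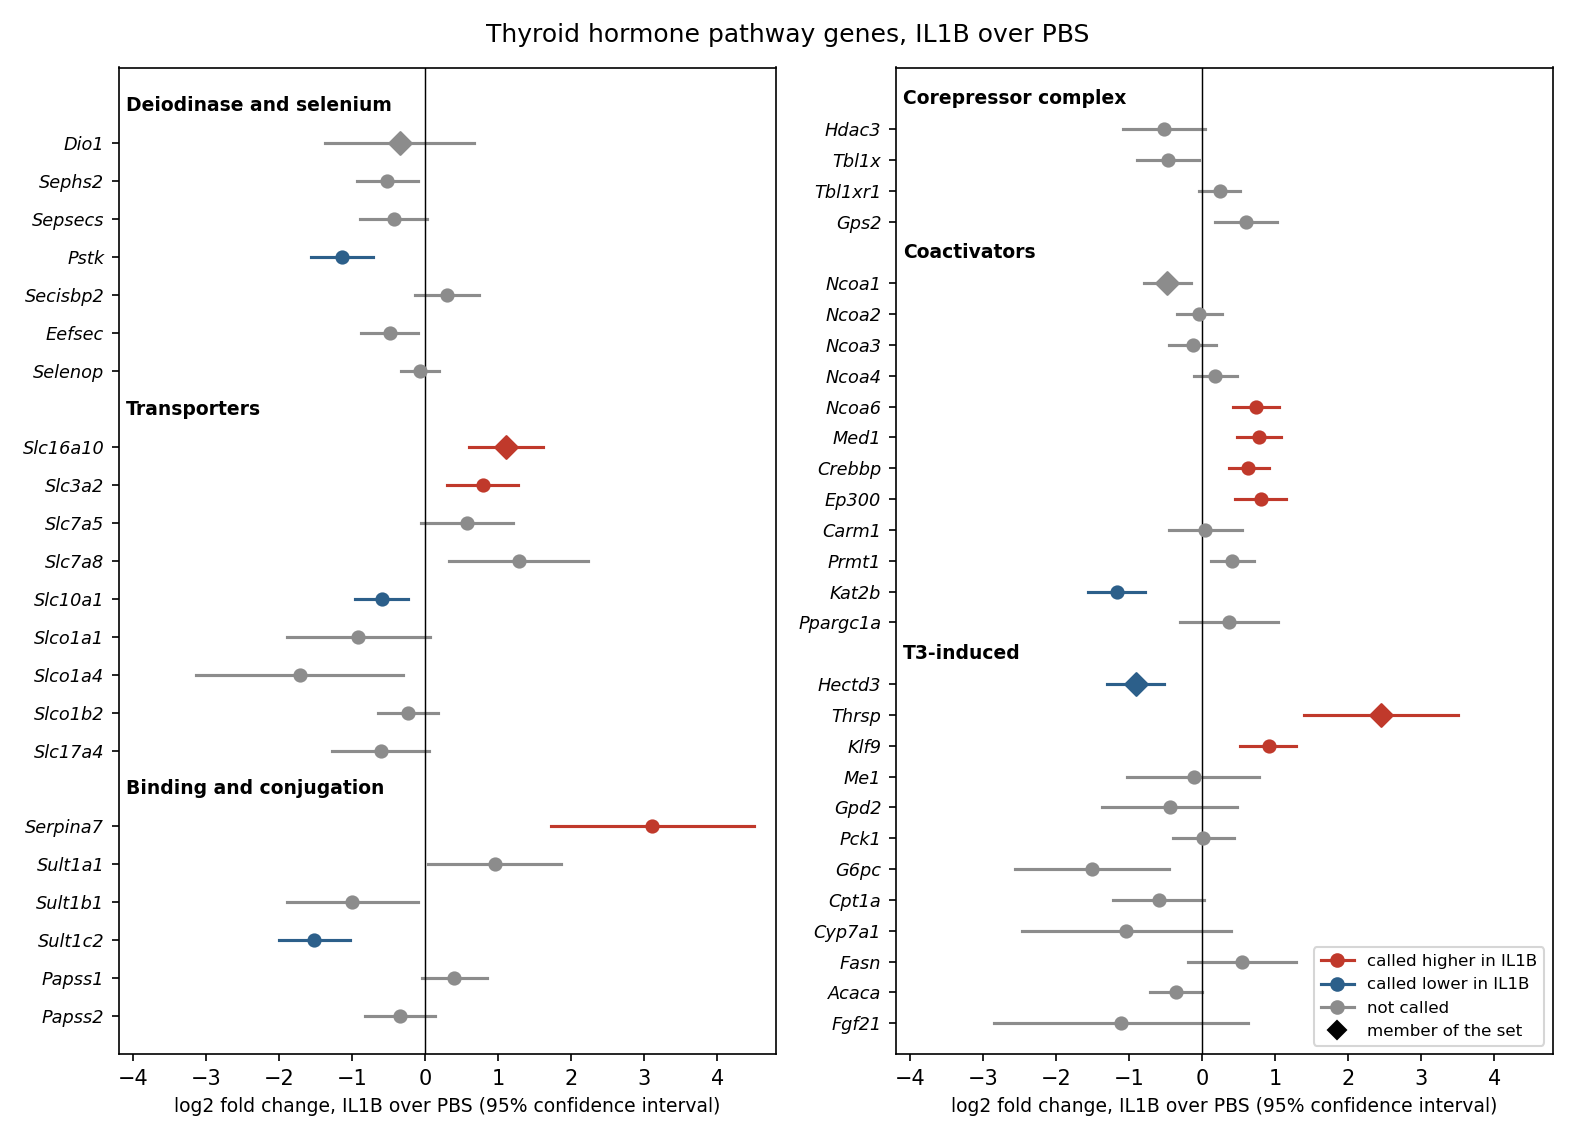
Log2 fold change, IL1B over PBS, with its 95% confidence interval for each measured pathway gene, grouped by role, with genes called higher in red, genes called lower in blue, genes not called in grey and the listed members as diamonds. Genes at an end of the scale in both groups and the receptors are not drawn. Serpina7 at 3.11 and Thrsp at 2.45 lie farthest to the right, and the wide interval of Dio1, from -1.37 to 0.67, crosses zero.

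Ncoa1 encodes the p160 coactivator SRC-1, which receptors recruit when hormone is bound. It measured 9.65, 9.55, 9.83 and 9.87 in IL1B livers, against 10.33, 9.99, 10.38 and 10.13 in PBS livers. The groups were separated by 0.12, the smallest gap among the 4 genes without overlap. Means were 9.72 ± 0.15 in IL1B and 10.21 ± 0.18 in PBS (SD, n = 4 each), with a log2 fold change of -0.48 ± 0.14 and a 95% confidence interval from -0.80 to -0.16. The limma p of 0.00728 became 0.055 after adjustment over all genes, just above the threshold, and the two-sided exact permutation p was 0.0286. Ncoa1 was called without PBS 2 (-0.55) and after quantile normalization (-0.64). It was not called without any other array, after median centring (-0.45, limma adjusted p = 0.105) or with the replicate block (limma adjusted p = 0.0731).

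Of 12 measured coactivator genes, 4 were called higher, 1 was called lower and 7, Ncoa1 among them, were not called. Their median log2 fold change was 0.27. Ep300, which encodes the histone acetyltransferase p300, had 11.65, 11.56, 11.21 and 11.09 in IL1B livers, against 10.62, 10.46, 10.57 and 10.65 in PBS livers, and rose by 0.80 ± 0.16 on the log2 scale (SE; limma adjusted p = 0.00984). Med1, which encodes the Mediator subunit that contacts nuclear receptors, had 10.34, 10.37, 10.34 and 10.54 in IL1B livers, against 9.79, 9.35, 9.71 and 9.64 in PBS livers, and rose by 0.78 ± 0.14 (SE; limma adjusted p = 0.00655). The other genes called higher were Ncoa6 at 0.74 (limma adjusted p = 0.00893) and Crebbp at 0.63 (limma adjusted p = 0.0105), named after their values had been seen. Kat2b, which encodes the acetyltransferase PCAF, stood in the opposite direction. It had 11.63, 11.42, 12.08 and 12.13 in IL1B livers, against 12.99, 12.98, 13.03 and 12.93 in PBS livers, and fell by 1.17 on the log2 scale (SE 0.18, limma adjusted p = 0.00277). The PBS mice hardly differed in Kat2b, and all 5 coactivator calls were kept in each fit with an array left out and after quantile normalization.

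Of the 4 measured genes of the corepressor complex none was called in either direction, with a median log2 fold change of -0.11. Gps2, a subunit gene, was at 0.60 ± 0.19 (limma adjusted p = 0.0688), and Hdac3, which encodes its deacetylase, at -0.52 ± 0.25 (limma adjusted p = 0.222). Both genes overlapped between the groups. Thrb, which encodes the main hormone receptor of hepatocytes, read 11.14, 10.71, 11.59 and 11.61 in IL1B livers and 12.00, 11.79, 12.10 and 12.70 in PBS livers, a log2 fold change of -0.89 ± 0.26 (limma adjusted p = 0.0512). Although not called with all arrays, Thrb was called in 6 of 8 alternative settings, among them quantile normalization (-1.0). The threshold of 0.15, also among the 6, rereads the same fit, so an adjusted p of 0.0512 had to pass it. After median centring Thrb was not called (-0.86, limma adjusted p = 0.0614). With 1 array left out it was called in only 2 of 8 fits, without IL1B 4 or PBS 2. Rxra, its main partner in liver, was at -0.37 ± 0.14 (limma adjusted p = 0.11), and Thra was at or below background in all 4 IL1B livers. Among PBS livers Thra exceeded background only in PBS 4, at 6.92 against 6.70. Of the 5 receptor and partner genes 2 were called lower, Thra and Rxrg, the second of them at background in both groups. Both calls thus rest on values mostly or wholly at background.

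**Figure D3:**
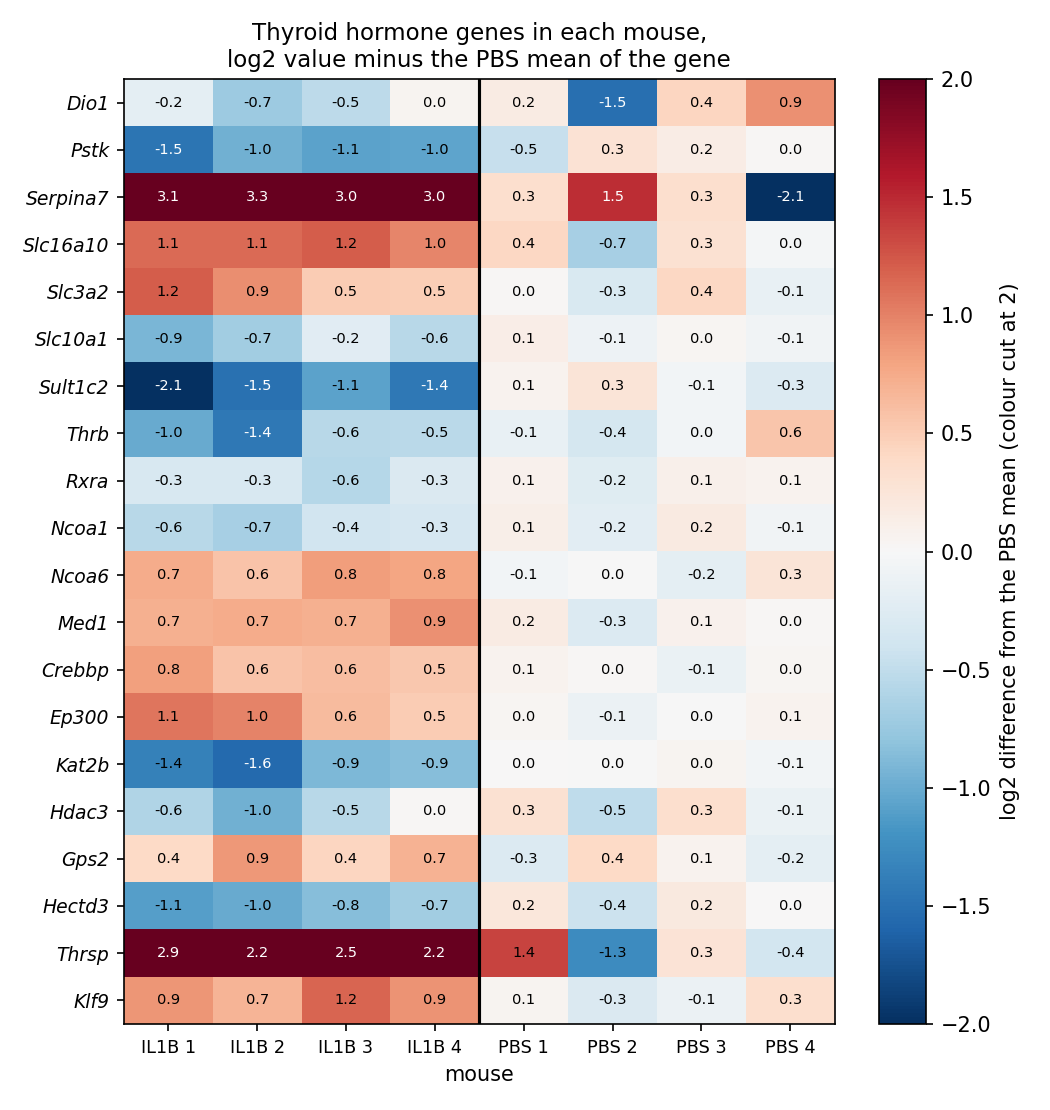
Log2 RMA value of 20 thyroid hormone genes in each mouse, as the difference from the gene's PBS mean, with IL1B mice 1 to 4 on the left and PBS mice 1 to 4 on the right and colours cut at 2 log2 units. Serpina7 lay 2.98 to 3.28 above its PBS mean in the IL1B mice, and Dio1 in PBS 2 lay at -1.51.

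The genes also differed in how widely the mice were spread. In all 5 members with a measurable level the IL1B values spanned less than the PBS values. The share of all genes with this order was not counted, so it cannot be read as particular to the members. Some pathway genes went the other way: the SD of Kat2b was 0.35 in IL1B and 0.04 in PBS, and that of Ep300 was 0.27 in IL1B and 0.08 in PBS. The span was 0.71 in IL1B and 2.61 in PBS for Thrsp, 0.77 in IL1B and 2.42 in PBS for Dio1, and 0.24 in IL1B and 1.08 in PBS for Slc16a10. It was 0.41 in IL1B and 0.66 in PBS for Hectd3, and 0.32 in IL1B and 0.38 in PBS for Ncoa1. PBS 2 was the lowest PBS mouse in 5 of these 5 genes, among genes called higher, called lower and not called. The same mouse was the lowest of its group in 44.5% of the 7576 genes above background on every array, and IL1B 2 was the lowest of its group in 41.4%, beside 12.8% to 25.0% for the other 6 mice. The part of this array in the members' values was not tested beyond the fits without it.

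**Figure D4:**
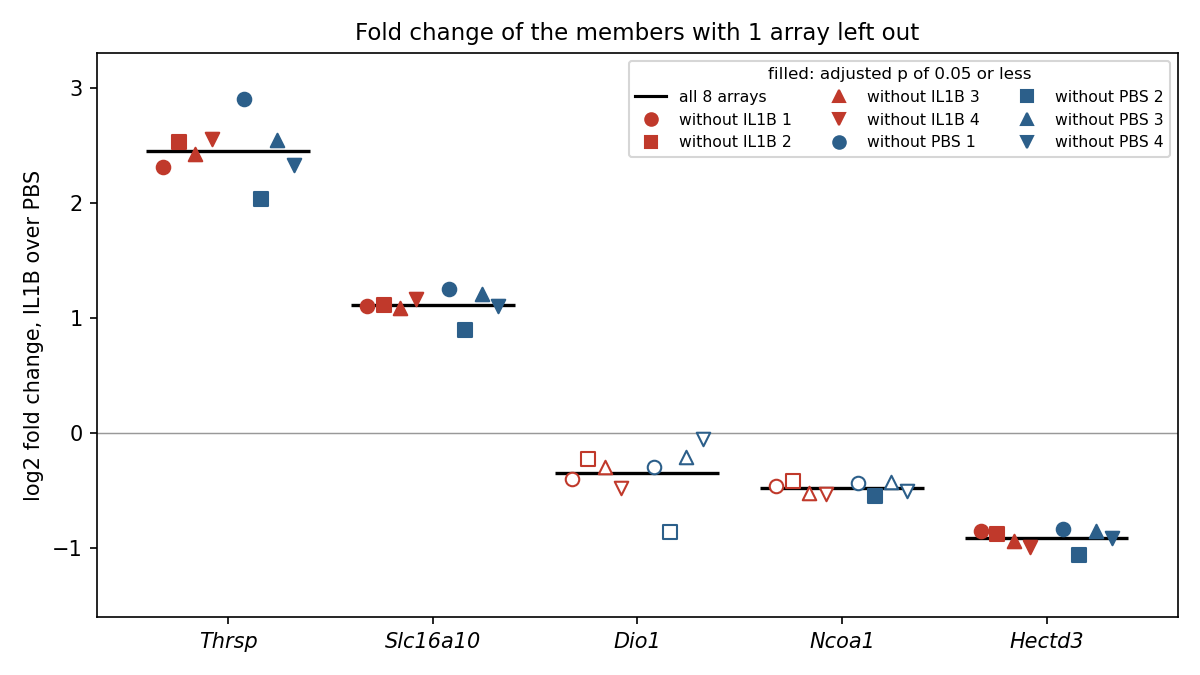
Log2 fold change, IL1B over PBS, of the 5 members with a measurable level after leaving out each array in turn, with a horizontal line for the value from all 8 arrays and filled points where the adjusted p was 0.05 or less. Thrsp, Slc16a10 and Hectd3 stayed called in every fit, Ncoa1 was called only without PBS 2, and Dio1 moved between -0.86 without PBS 2 and -0.05 without PBS 4.

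For Dio1, Hectd3 and Thrsp, the genes with the most similar profile over the 8 arrays were ranked by Pearson correlation among 7545 genes above background, as a description in which the points share the difference between the groups. Closest to Dio1 were Zfp768 (r = 0.970), Pisd-ps3 (r = 0.968) and Adgra3 (r = 0.961). None of these 3 was called, and all had PBS 2 as their lowest mouse. Closest to Hectd3 were Bivm (r = 0.995), Ppp6r2 (r = 0.994) and Bri3bp (r = 0.986), with log2 fold changes of -0.99, -0.65 and -1.06. Closest to Thrsp were Usp50 (r = 0.987), the S100 family gene S100a10 (r = 0.986) and the ubiquitin ligase gene Rnf20 (r = 0.983), with log2 fold changes of 0.56, 1.57 and 0.59. These last 6 genes were called in the direction of their member.

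Of the 8 hepatocyte markers 5 were saturated in both groups and none was called, with a mean between 17.91 and 17.99 in IL1B livers and between 17.70 and 18.03 in PBS livers. The marker Ass1, a urea cycle gene, was dim, at 7.82, 8.83, 7.94 and 7.37 in IL1B livers and 6.49, 8.19, 6.52 and 6.30 in PBS livers, where 3 of the 4 values were at background. Neutrophil markers differed between the groups. All 8 were called higher, and their mean was 10.72, 10.87, 7.68 and 7.56 in IL1B mice 1 to 4, against 4.79 to 5.50 in PBS mice. Kupffer cell markers had means of 13.72, 13.01, 10.90 and 10.33 in IL1B mice 1 to 4, against 10.20 to 11.50 in PBS mice, with 0 of 8 called. Of the 8 sinusoidal endothelial markers 2 were called higher and 3 lower (means 11.54 to 11.95 in IL1B, 11.62 to 11.99 in PBS), of the 8 stellate cell markers 2 were lower (9.13 to 9.40 in IL1B, 9.49 to 9.70 in PBS) and of 5 cholangiocyte markers 1 was higher (5.63 to 6.04 in IL1B, 5.46 to 5.69 in PBS). IL1B 1 and IL1B 2, the mice with the higher neutrophil and Kupffer means, also lay below IL1B 3 and IL1B 4 in Hectd3, Ncoa1, Kat2b, Ncoa6, Thrb, Slc10a1, Hdac3, Klf9, Me1 and Sult1c2. They lay above them in Ep300, Slc3a2 and Serpina7, while in Thrsp, Slc16a10 and Dio1 the 4 IL1B mice were intermingled. In Hectd3 and Ncoa1 the values of IL1B 3 and IL1B 4 still lay under every PBS value. The part of these cells in the values of the thyroid hormone genes was not tested.

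The balance of directions over all genes moved with the scaling: 57.5% of the genes called with the deposited values stood higher in IL1B, a share that was 46.6% once arrays were quantile normalized and 63.7% once each was centred on its median. The sign of the log2 fold change of Dio1, Hectd3, Thrsp, Slc16a10 and Ncoa1 was kept in 16 of 16 alternatives. Many of these could not change a sign.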

How the data were processed

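Liver RNA of 8 mice was measured on Affymetrix arrays. The authors deposited log2 intensities summarised by RMA, made with Affymetrix Power Tools (version not given in the sources used here), so background and differences between arrays are already partly removed. Rows with 1 gene symbol in the platform annotation were averaged per symbol to 22180 genes, and columns of other samples numbered 0. Each gene was tested with limma 3.58.1 in R 4.3.3 (lmFit, eBayes; group as the only factor; two-sided; Benjamini-Hochberg over all genes; called at 0.05 or less), a procedure tested on simulated data with known changes. That simulation changed 200 genes of intermediate level, with independent noise of equal spread in both groups. Unequal spreads and shifts shared by a whole array were not part of it. Single genes were also compared by the exact permutation test over 70 assignments. Each limma p-value rests on the spread among 4 mice per group, moderated towards the spread over all genes, and the number of arrays limits the precision. Genes within 1 log2 unit of the ceiling, or at or below background, in both groups were given no fold change. Groups came from the treatment label of each sample and mouse numbers from the sample titles, and the labels give no batch. At most 0.341% of values were equal between any 2 arrays, and arrays correlated between 0.965 and 0.993.

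The members, gene lists and alternatives were chosen with earlier results of these data known. Named were the 8 members, Thra, Thrb and Rxra, from each list of the pathway the 2 highest and 2 lowest called genes (or, with none called, the 2 of largest change) and, for Dio1, Hectd3 and Thrsp, the 3 most correlated genes. Of 69 list entries 62 were measured, and the others are not reported here. Of 6 erythroid markers 1 was measured, at background. Alternatives were array weights, a replicate block, a trended robust eBayes, centring on the median, quantile normalization, dropping dim genes, taking each gene's brightest feature, the study's threshold of 0.15 and leaving out each array. Promoter windows came from RefSeq (GRCm38.p6), and figures were drawn with matplotlib 3.10.9.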

Additional observations from a re-analysis of the deposited data

Results flagged for a closer look

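A mouse that stood far from the other 3 of its group, by Dixon's test at the 95% level, was found in 8 of 66 groups of 4, where chance gives about 1 in 20. None of these groups belonged to a listed member. The 66 groups come from the same mice and include genes picked for a profile like that of Dio1, Hectd3 or Thrsp. They are therefore not independent, and 8 of 66 was not tested against the rate of 1 in 20.

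Thra, a hormone receptor gene, was lowest in IL1B 2 at 5.73, with the other IL1B mice at 6.06 to 6.10, all at or below background. Rxra, its partner gene, was lowest in IL1B 3 at 13.17 (others 13.41 to 13.45) and, among PBS mice, lowest in PBS 2 at 13.49 (others 13.80 to 13.84). The deiodinase gene Dio3 was lowest in IL1B 2 at 2.59 (others 3.17 to 3.28), and Dio2 was highest in PBS 2 at 4.60 (others 3.74 to 3.81), both at background. The coactivator gene Med1 was highest in IL1B 4 at 10.54, against 10.34 to 10.37 in the other IL1B mice. Of the genes that followed Dio1 most closely, Zfp768 was highest in IL1B 4 at 7.62 (others 7.43 to 7.44) and Adgra3 was lowest in PBS 2 at 9.98 (others 10.97 to 11.11).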

How the results depend on the processing

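The signs of the 5 members with a measurable level were kept under all alternatives run, many of which could not change a sign. Thrsp, Slc16a10 and Hectd3 stayed called in each. Outside the fits that left out an array, Dio1 ran from -0.46 to -0.32, Hectd3 from -1.06 to -0.88, Thrsp from 2.31 to 2.48 and Slc16a10 from 1.04 to 1.14. With 1 array left out, the members called lower numbered 1 to 2 (2 without PBS 2) and those called higher 2 each time. The pathway genes other than the members, of which 7 were called higher and 7 lower with all arrays, numbered 6 to 7 higher and 5 to 8 lower with 1 array left out. Over all genes, 1082 to 1399 were then called higher and 676 to 1077 lower, with 676 without IL1B 1, 677 without PBS 1 and 781 without PBS 3.

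Ncoa1 passed the threshold after quantile normalization (-0.64, limma adjusted p = 0.0101), with the filter on dim genes (-0.48, limma adjusted p = 0.0253; 8880 genes tested), with array weights (-0.49, limma adjusted p = 0.0464), at the study's threshold of 0.15 (-0.48) and without PBS 2 (-0.55), and ran from -0.55 to -0.42 with 1 array left out. The members called lower were 2 under each of these settings. After median centring Ncoa1 lay farther from the threshold (-0.45, limma adjusted p = 0.105). At 0.15, 2634 genes were higher and 2592 lower, and 14 pathway genes other than the members were lower. The cause was not tested. With the replicate block the members called were again 2 higher and 1 lower, Hectd3 having an adjusted p of 0.0204 by limma, and Slc3a2 (limma adjusted p = 0.0704) and Slc10a1 (limma adjusted p = 0.0696) were no longer called while Thrb was (limma adjusted p = 0.0168). The correlations of same-numbered mice, after each gene's group mean was subtracted, were -0.106, 0.311, 0.083 and 0.214 for numbers 1 to 4. For IL1B mice 1 to 4 the highest correlation with a differently numbered PBS mouse was 0.079, -0.067, 0.138 and 0.147. The labels link these mice by number only, and whether they share more was not tested. With 4 arrays per group, values at either end of the scale (Ttr, Crym) set the limit of what can be read.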
